A study of Arabidopsis thaliana with 29 samples.

Results

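The regions described here are 256 peaks of H3K27me3, the trimethylated form of lysine 27 of histone H3, that were called in wild-type *Arabidopsis thaliana* seedlings and became narrower in both *clf-29* and *lhp1-6*. They were taken from the first Col-0 peak list, which holds 5055 peaks on chromosomes 1 to 5. A peak was a member if it was shorter than 4000 bp and if peaks of the first *clf-29* list covered more than 0% and less than 60% of its length, and peaks of the *lhp1-6* list likewise. Of the 4560 peaks under 4000 bp, 1022 had no cover in at least 1 of these mutant lists, 153 were narrowed in *clf-29* only, 511 in *lhp1-6* only, and 2618 kept 60% or more in both. The 3282 peaks with some cover in both mutants that were not members are called the other peaks. The members were thus chosen by their measured cover in Col-0, *clf-29* and *lhp1-6*, which is given below as a description without a test.

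By the labels, all plants were Col ecotype seedlings, harvested without roots at 2 weeks of age after growth in 16 h light and 8 h dark with no treatment. H3K27me3 was profiled by ChIP-seq, the sequencing of DNA bound to an antibody, in Col-0, in *clf-29*, in the *LHP1* mutant lines *tfl2-2* and *lhp1-6*, and in the PRC1 double mutants *atbmi1a,b* and *atring1a,b*. There were 2 lists per genotype and 1 for each *LHP1* line. Transcripts were measured by RNA-seq in 14 libraries, 2 each of Col-0, *clf-29*, *swn-21*, the double mutant *clf-29swn-21*, *atbmi1a,b* and *atring1a,b*, and 1 each of *tfl2-2* and *lhp1-6*, which were treated as 1 group of *LHP1* mutant lines. The labels give 21 °C for *tfl2-2* and for the first list of Col-0, *clf-29* and both PRC1 double mutants, and 22 °C for the second lists and for *lhp1-6*. In RNA-seq, library 1 of Col-0, of *clf-29* and of each double mutant was likewise grown at 21 °C and library 2 at 22 °C, both *LHP1* lines at 21 °C and both *swn-21* libraries at 22 °C. Nothing in the labels says whether libraries of 1 genotype came from separate cultures, and the methods call them biological duplicates or independent lines. By the methods, *clf-29swn-21* was grown on MS medium and harvested as whole plants, against the label, and all others in soil.

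H3K27me3 is deposited by Polycomb repressive complex 2 (PRC2), in which CURLY LEAF (CLF) and SWINGER (SWN) are alternative catalytic subunits in seedlings, and it is associated with genes that are kept silent. LIKE HETEROCHROMATIN PROTEIN 1 (LHP1) binds H3K27me3 through its chromodomain and associates with Polycomb proteins, and the AtBMI1 and AtRING1 proteins belong to the PRC1 group, which ubiquitinates histone H2A. In *Arabidopsis* the mark usually spans the transcribed part of single genes, among them many regulators of flower and embryo development.

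The deposited lists differed widely, from 2983 peaks in the second Col-0 list to 7523 in *lhp1-6*, and from 4.94 Mb covered in the second *atring1a,b* list to 26.0 Mb in the first. By their names, the lists with the 21 °C label were called against a no-antibody library, which is not stated for the second lists and *lhp1-6*, and the part of this difference in the cover was not tested. They hold no read counts, so the depth behind a peak is unknown, and with 1 list per library a narrowed peak has no replicate check within a list. Peaks of 1 list are not replicates of a genotype, and the 95% Wilson intervals given with shares of peaks cover counting error only. In RNA-seq, the libraries held between 17277027 and 36205758 counts. *CLF* was at 38.9 and 29.2 CPM (counts scaled to library size) in Col-0 and at 0.719 and 0.441 in *clf-29*, and *LHP1* was at 28.7 and 35.9 in Col-0, 0 in *tfl2-2* and 1.72 in *lhp1-6*. *SWN* was not lower in the libraries labelled *swn-21* (91.6 and 89.4) or *clf-29swn-21* (118 and 107) than in Col-0 (48.7 and 71.7), so the *swn-21* labels could not be checked by transcript level. *AtBMI1B* was at 4.37 and 4.87 CPM in *atbmi1a,b* against 12.2 and 16.8 in Col-0, and *AtRING1B* at 1.64 and 0.690 in *atring1a,b* against 8.14 and 15.7. *AtBMI1A*, however, was at 13.9 and 22.6 against 14.5 and 11.2, and *AtRING1A* at 601 and 828 against 14.4 and 18.7, so these genes were not lower in the libraries labelled as their mutants. The paper reports that RNA-seq reads bore out the genotype of every sample. Its supplement describes a gene with almost no reads on its first exons and later exons driven by an insertion. Totals per gene, as used here, cannot show such a pattern.

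The narrowed peaks were long and of moderate strength. Their median length was 2660 bp (range 720 to 3986), against 1714 bp for the other peaks, and 201 of the 256 were 2000 bp or longer. Their Col-0 score, which the peak caller gave and which ranks peaks within a list, had a median of 168, against 205 for the other peaks and 314 for the 1218 other peaks of 2000 bp or longer. The part of score and length in the narrowing was not tested. The members lay on all chromosomes, with 87 on chromosome 1, 46 on chromosome 2, 38 on chromosome 3, 39 on chromosome 4 and 46 on chromosome 5. The median cover was 47.2% in *clf-29* and 44.5% in *lhp1-6*. Just inside the limit, the peak at chr1:28368642-28370149 was covered by 59.95% in *clf-29* and 55.04% in *lhp1-6*, and just outside it the peak at chr3:1074904-1076930 was covered by 60.04% and 51.06%.

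Among the members, 36 were covered by more than 0% and less than 60% in all 4 mutant lists of *clf-29* and *LHP1*. Of these, 22 had no peak in the second Col-0 list. The 14 that this list covered by 60% or more show most plainly which part of a peak remained. They lie at *NAC019*, a stress-responsive NAC transcription factor gene, at the MADS box gene *SEP4*, at *WRKY55*, *MIOX5* (a myo-inositol oxygenase gene), *SNRK2.9* (a kinase gene), *HIPP25*, *RTFL22* (a gene of a small ROTUNDIFOLIA-like peptide), AT2G43270, AT2G39410 with AT2G39415, AT2G18196, AT3G14260, AT1G29100 and AT3G52690 with AT3G52700, and 1 lies in no gene, upstream of AT4G22580. At *NAC019* the Col-0 peak at chr1:19695911-19698725 had a length of 2815 bp, and 914 bp remained in both mutants, nearly all inside the gene body. At *SEP4* the Col-0 peak at chr2:1129135-1131704 had a length of 2570 bp. The pieces there ran over chr2:1129374-1130471 in *clf-29* and chr2:1129317-1130343 in *lhp1-6*, on the first part of the gene, and the bases toward its end were lost. The *tfl2-2* piece, chr2:1129162-1130211, and the second *clf-29* piece, chr2:1128983-1130230, lay on the same side.

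Sequences of these regions are shown because the bases that remained differed in composition from those that were lost. They are windows of 200 bases, without annotated untranslated exon bases, from the middle of the longest stretch that was left or lost in both *clf-29* and *lhp1-6*, on the strand of the main gene (plus strand for the region in no gene), from the RefSeq assembly TAIR10.1, which has the TAIR10 coordinates. Capitals mark a GA repeat (GAGAGA or its complement TCTCTC) or an RY element (CATGCA or its complement). The first 4 pairs were chosen because the window left holds a GA repeat, the *NAC019* window because it is coding sequence without a match, and the *SEP4* pair because its windows, though not its full stretches, go the other way in composition.
AT2G18196, left in both, chr2:7920911-7921110, minus strand: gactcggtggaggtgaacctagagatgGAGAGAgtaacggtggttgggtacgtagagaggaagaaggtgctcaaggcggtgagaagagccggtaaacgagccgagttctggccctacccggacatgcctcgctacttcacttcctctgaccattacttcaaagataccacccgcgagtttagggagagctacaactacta
AT2G18196, lost in both, chr2:7923417-7923616, minus strand: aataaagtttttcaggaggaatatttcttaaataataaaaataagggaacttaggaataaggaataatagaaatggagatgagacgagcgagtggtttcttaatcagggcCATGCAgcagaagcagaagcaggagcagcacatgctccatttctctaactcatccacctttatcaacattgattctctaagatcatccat
AT1G29100, left in both, chr1:10169198-10169397, plus strand: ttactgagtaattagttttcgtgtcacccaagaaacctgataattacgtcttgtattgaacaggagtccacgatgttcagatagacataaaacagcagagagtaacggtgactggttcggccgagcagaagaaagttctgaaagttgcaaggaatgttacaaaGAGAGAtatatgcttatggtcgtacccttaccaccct
AT1G29100, lost in both, chr1:10167595-10167794, plus strand: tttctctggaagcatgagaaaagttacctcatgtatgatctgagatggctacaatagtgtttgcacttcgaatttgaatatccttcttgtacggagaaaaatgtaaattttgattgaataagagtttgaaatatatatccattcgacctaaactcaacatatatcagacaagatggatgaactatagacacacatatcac
RTFL22, left in both, chr1:23989888-23990087, minus strand: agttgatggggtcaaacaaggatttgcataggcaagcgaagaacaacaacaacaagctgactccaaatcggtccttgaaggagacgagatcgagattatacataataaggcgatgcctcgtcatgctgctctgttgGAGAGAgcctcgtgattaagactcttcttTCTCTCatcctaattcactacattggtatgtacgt
RTFL22, lost in both, chr1:23991244-23991443, minus strand: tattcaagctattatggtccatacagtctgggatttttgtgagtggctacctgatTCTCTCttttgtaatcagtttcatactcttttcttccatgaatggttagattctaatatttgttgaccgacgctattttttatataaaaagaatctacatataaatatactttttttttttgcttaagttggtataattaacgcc
Region upstream of AT4G22580, left in both, chr4:11891805-11892004, plus strand: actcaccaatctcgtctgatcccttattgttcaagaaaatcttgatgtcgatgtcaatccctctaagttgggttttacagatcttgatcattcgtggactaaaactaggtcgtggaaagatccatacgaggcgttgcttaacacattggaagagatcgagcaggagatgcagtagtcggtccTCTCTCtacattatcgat
Region upstream of AT4G22580, lost in both, chr4:11892897-11893096, plus strand: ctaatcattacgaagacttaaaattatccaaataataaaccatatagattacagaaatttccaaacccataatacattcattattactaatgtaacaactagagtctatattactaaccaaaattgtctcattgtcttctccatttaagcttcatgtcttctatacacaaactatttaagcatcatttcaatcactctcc
NAC019, left in both, chr1:19697461-19697660, minus strand: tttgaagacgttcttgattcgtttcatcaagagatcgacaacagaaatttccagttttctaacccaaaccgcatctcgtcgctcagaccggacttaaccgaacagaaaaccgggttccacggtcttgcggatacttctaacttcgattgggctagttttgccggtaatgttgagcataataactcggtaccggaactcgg
SEP4, left in both, chr2:1129883-1130082, plus strand: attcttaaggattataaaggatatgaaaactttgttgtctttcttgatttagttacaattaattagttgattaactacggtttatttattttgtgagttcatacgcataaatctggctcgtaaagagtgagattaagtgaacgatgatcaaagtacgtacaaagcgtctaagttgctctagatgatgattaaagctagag
SEP4, lost in both, chr2:1130757-1130956, plus strand: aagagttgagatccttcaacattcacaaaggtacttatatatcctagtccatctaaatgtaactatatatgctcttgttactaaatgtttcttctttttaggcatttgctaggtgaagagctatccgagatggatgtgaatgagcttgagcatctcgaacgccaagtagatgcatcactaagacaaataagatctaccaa
The window left at AT2G18196 was coding sequence with 53.5% G and C, and the window lost, 88.5% of it in the first 1000 bp upstream of a gene, had 37.0%. At AT1G29100 the values were 41.5% and 33.0%, at *RTFL22* 44.0% and 30.0%, and in the region without a gene 43.0% and 28.0%. At *SEP4* the window left, which lies wholly in an intron, had 31.0% and the window lost 36.5%. Over the 14 regions the window left was the richer in 11 and the poorer in 3. The *RTFL22* window that was lost also holds a GA repeat.

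**Figure D1:**
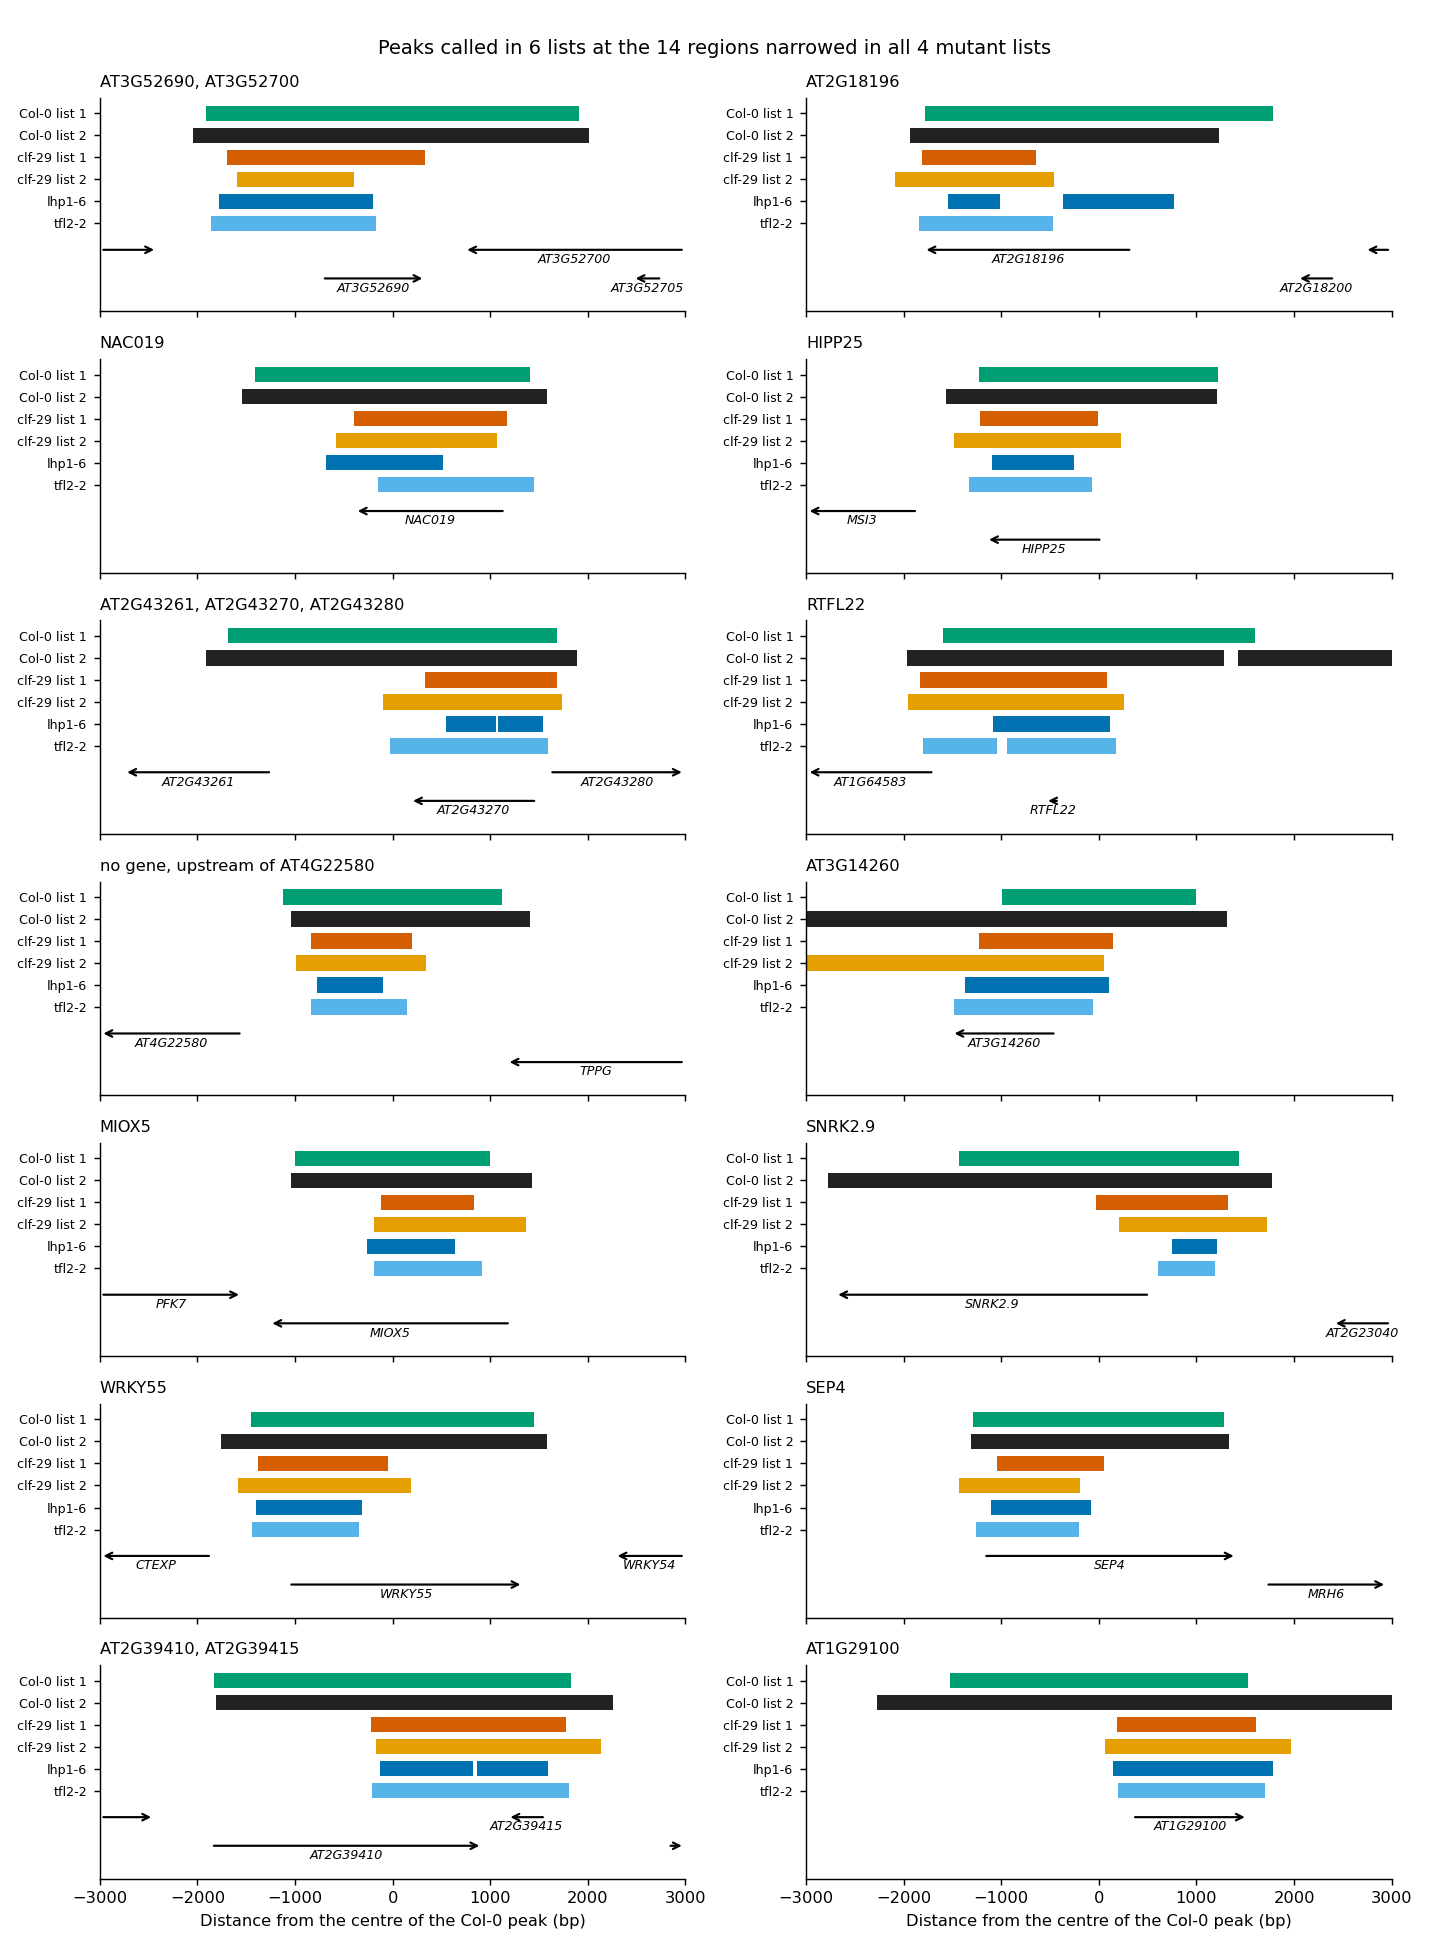
Peaks called in 6 lists at the 14 regions narrowed in all 4 mutant lists and covered by 60% or more in the second Col-0 list. Each panel is titled by the genes under the Col-0 peak. The x axis is the distance from the centre of the Col-0 peak in bp. Bars are called peaks and arrows are genes in the direction of transcription. In each panel the mutant pieces share a stretch of the Col-0 peak. The second Col-0 list spans most of the peak because the regions were chosen for that.

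What remained was in most cases a single piece. In *clf-29* 251 of 256 members (98.0%, interval 95.5 to 99.2%) kept 1 piece, and in *lhp1-6* 220 (85.9%, 81.1 to 89.7%). A gap of 100 bp or more inside the peak occurred in 3 members in *clf-29* and 27 in *lhp1-6*. The median remainder was 1168 bp in *clf-29* and 1100 bp in *lhp1-6*. Both ends had lost 100 bp or more in 133 members (52.0%) in *clf-29* and 174 (68.0%) in *lhp1-6*, and only 1 end in 123 and 79. Losses were thus mostly at the ends. Among the 223 members that overlap a gene, the 5′ end alone was trimmed in 52 and the 3′ end alone in 54 in *clf-29*, and in 29 and 38 in *lhp1-6*. The middle of the remainder fell in the central part of the Col-0 peak, 1 of 3 equal parts, in 87 members (34.0%) in *clf-29* and 110 (43.0%) in *lhp1-6*. Most remainders thus had their middle outside the central part. The centre of the Col-0 peak was nevertheless still covered in 162 members (63.3%) in *clf-29* and 150 (58.6%) in *lhp1-6*. When peaks were cut into 10 bins of equal length, the average cover in *clf-29* was 61.8% in bin 5 and 25.7% and 23.7% in the outermost bins. The other peaks were also covered least at their ends, with 98.1% in bin 5 and 66.8% and 66.1% in the outermost bins in *clf-29*, and 93.8%, 37.7% and 34.1% in *lhp1-6*. In the second *clf-29* list, where 55 members were narrowed, 46 had lost 1 end and 7 had a central remainder.

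**Figure D2:**
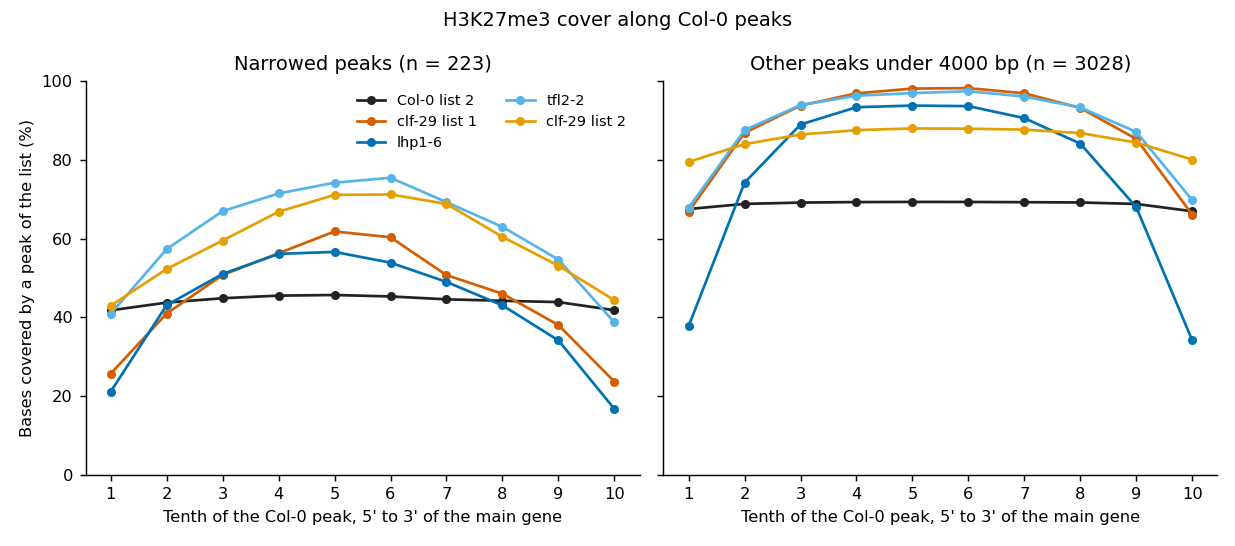
Percent of bases covered by peaks of 5 lists in each of 10 equal bins of the Col-0 peak, from 5′ to 3′ of the main gene, for 223 narrowed peaks and 3028 other peaks with a gene in the body. In the narrowed peaks the cover in *lhp1-6* was 21.1% and 16.7% in the outermost bins and 56.6% in bin 5. That of the second Col-0 list, which had no peak at 133 of the 256 members, stayed between 41.8% and 45.7%.

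The same part of the peak remained in both mutants in most members. The pieces of *clf-29* and *lhp1-6* overlapped in 242 of 256 members (94.5%, interval 91.0 to 96.7%), and the overlap held a median of 99.1% of the smaller remainder. By the rule both pieces lie inside the same Col-0 peak, so pieces of this length would often touch wherever they lay. The share that overlapped is therefore a description, and no expected share was computed. In 202 members the midpoints of the remainders lay within 300 bp of each other, and across the 256 peaks the position of the midpoint correlated with r = 0.76 between the mutants, a description that shares the Col-0 peak and the limits of the rule. The stretch left in both had a median of 937 bp and the stretch lost in both 1242 bp. A piece reached 100 bp or more beyond the Col-0 peak in 48 members in *clf-29* and 23 in *lhp1-6*.

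Lists that did not choose the members also showed the narrowing, measured over the same first Col-0 peaks that the rule used. All these lists thus share the edges of the Col-0 peaks. The other peaks are by the rule those not narrowed in both mutants. The part of the shared edges in the shares below was not tested. In *tfl2-2*, the other *LHP1* line, 121 of 256 members (47.3%, interval 41.2 to 53.4%) were covered by more than 0% and less than 60%, against 4.69% of the 3282 other peaks and 8.62% of the 1218 other peaks of 2000 bp or longer. In the second *clf-29* list 55 members (21.5%, 16.9 to 26.9%) were narrowed, against 1.46% and 3.12%, and 56 had no peak there. In the second Col-0 list 3 members (1.17%, 0.399 to 3.39%) were narrowed, against 0.213% and 0.0821%. However, 133 members (52.0%) had no peak there, against 30.3% and 41.0%. Of those with a peak there, 2.44% of members were narrowed, against 0.306% and 0.139%. Among the 120 members that the second Col-0 list covered by 60% or more, a subset chosen after the data were seen, 45.0% were narrowed in *tfl2-2* and 18.3% in the second *clf-29* list. The intervals of members and other peaks did not overlap in *tfl2-2* or the second *clf-29* list. With 1 list on each side, library and genotype cannot be told apart. The *tfl2-2* list and the first Col-0 and *clf-29* lists have the 21 °C label, and the *lhp1-6* and second *clf-29* lists the 22 °C label.

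In the PRC1 mutants the narrowing differed between lists. In the first *atbmi1a,b* list 67 members (26.2%, interval 21.2 to 31.9%) were narrowed, against 16.3% of the other peaks of 2000 bp or longer. In the second *atbmi1a,b* list 12 (4.69%, 2.701 to 8.013%) were narrowed, against 1.396% (0.8732 to 2.224%), and 117 had no peak there. In the second *atring1a,b* list 14 (5.47%, 3.285 to 8.969%) were narrowed, against 2.709% (1.936 to 3.78%), with intervals that overlap, and 156 had no peak. Where these lists had a peak, 8.633% and 14% of members were narrowed, against 2.371% and 4.735% of those other peaks. In the first *atring1a,b* list 1 member was narrowed. The first *atring1a,b* list, which covers the most bases of all, had a median cover of 100% over the members.

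**Figure D3:**
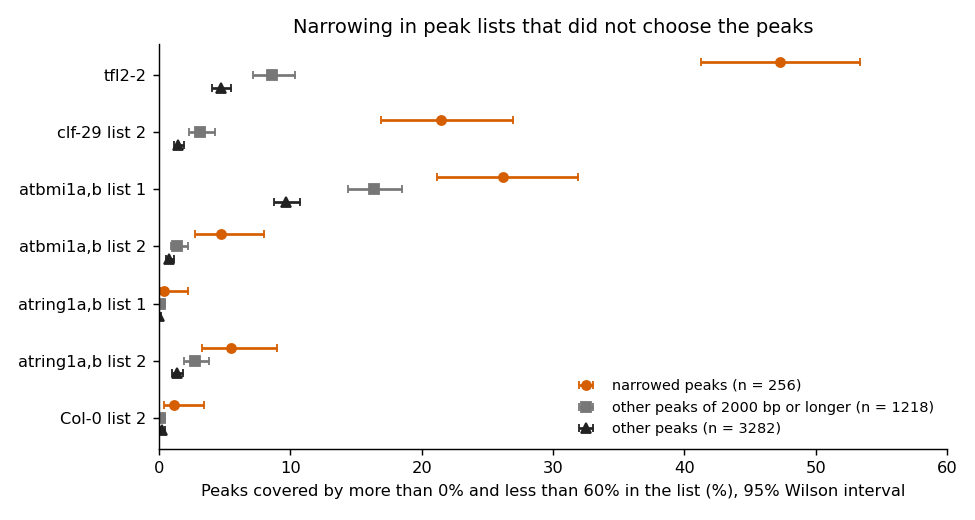
Percent of peaks covered by more than 0% and less than 60% in 7 lists that the rule did not use, with 95% Wilson intervals, for 256 narrowed peaks, 1218 other peaks of 2000 bp or longer and all 3282 other peaks. The narrowed peaks stand at 47.3% in *tfl2-2* and 21.5% in the second *clf-29* list, and at 1.17% in the second Col-0 list.

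Cover in the other lists followed the same division to different degrees. Of the 229 members with both a kept and a lost stretch and a peak in *tfl2-2*, 218 had more cover there over the stretch left in *clf-29* and *lhp1-6* than over the stretch lost, with medians of 100% and 17.9%. In the second *clf-29* list this held for 164 of 190 (medians 100% and 42.0%) and in the first *atbmi1a,b* list for 162 of 195 (100% and 68.8%). In the second Col-0 list, by contrast, both stretches were covered equally in 87 of 119 members, and the means were 98.9% and 93.1%. Of the 115 members narrowed in *tfl2-2* that had a stretch left in both *clf-29* and *lhp1-6*, the *tfl2-2* piece touched that stretch in 112. The stretch left had more cover in 34 of 130 members in the second *atbmi1a,b* list and in 15 of 237 in the first *atring1a,b* list, where most had equal cover. In the second *atring1a,b* list it had more in 50 of 97, less in 5 and equal cover in 42.

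In *clf-29* and *lhp1-6* the retained piece lay on the start of the gene more often than on its end or its upstream region. Of 217 transcription starts inside members, 128 (59.0%, interval 52.3 to 65.3%) kept cover in *clf-29*, 126 (58.1%, 51.4 to 64.4%) in *lhp1-6* and 112 (51.6%) in both, whereas 44.8% and 42.4% of all member bases kept it. Of 188 transcript ends, 78 (41.5%, 34.7 to 48.6%) and 60 (31.9%, 25.7 to 38.9%) kept cover. The other peaks showed the same order, with 89.6% of starts and 82.0% of ends kept in *clf-29* and 75.9% and 56.4% in *lhp1-6*. In *tfl2-2* 157 starts (72.4%, 66.1 to 77.9%) and 115 ends (61.2%, 54.1 to 67.9%) were covered, and in the second *clf-29* list 142 starts (65.4%, 58.9 to 71.5%) and 118 ends (62.8%, 55.7 to 69.4%), with intervals that overlap. At 500 bp upstream of the start the first Col-0 list covered 59.0% of the 217 positions, *clf-29* 16.1%, *lhp1-6* 16.6% and *tfl2-2* 20.7%. At 500 bp downstream it covered 94.9%, *clf-29* 69.6%, *lhp1-6* 68.2% and *tfl2-2* 82.0%. Against the first Col-0 list the upstream flank was thus reduced more than the first part of the gene body in each of these lists. The second Col-0 list, with the 22 °C label of *lhp1-6*, covered 33.6% and 43.8% of these positions. It had no peak at 133 of the 256 members and covered 43.8% of the starts themselves. Against it *lhp1-6* was lower upstream and higher downstream, and the second *clf-29* list, with 40.6% and 68.2%, was higher at both. These comparisons count peaks missing from the second Col-0 list as well as the place of edges.

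**Figure D4:**
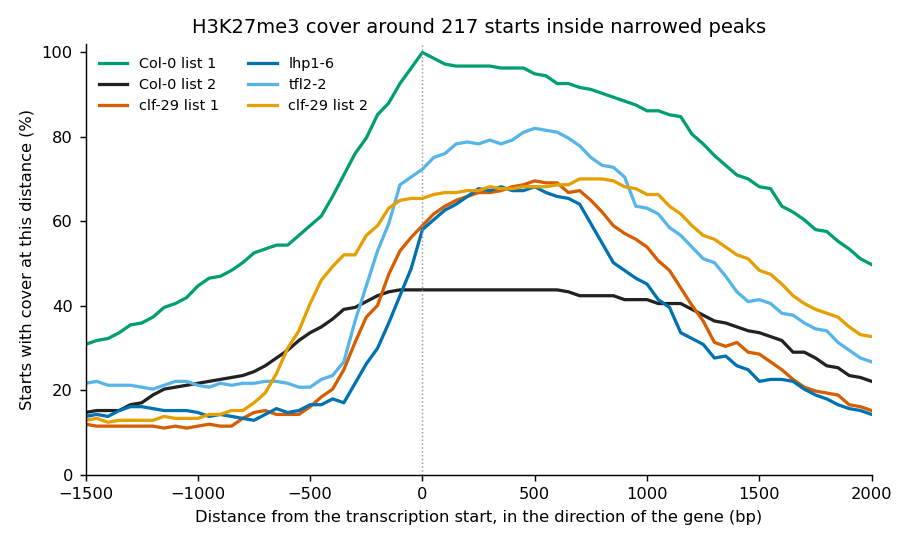
Percent of 217 transcription starts inside narrowed peaks with cover at each distance in bp, upstream to the left, for 6 lists. Cover in *clf-29* and *lhp1-6* was 59.0% and 58.1% at the start and 16.1% and 16.6% at 500 bp upstream, where the first Col-0 list had 59.0%.

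By annotation, exons were kept more than other bases. The 256 members held 677332 bp, of which 39.8% were exons, 15.8% introns, 21.0% lay in the 1000 bp upstream of a gene and 23.4% elsewhere. In both mutants 53.5% of the exon bases were kept, 33.8% of the intron bases, 22.1% of the upstream bases and 18.7% of the remaining bases. Exons made up 59.7% of the stretches left in both and 26.6% of those lost in both. Within members, the exon share was higher in the stretch left in 180 of 237, with medians of 64.6% and 22.0%.

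Base composition followed the same division. G and C made up 37.8% of the bases left in both mutants and 32.0% of those lost in both, and the stretch left was the richer one in 217 of 237 members, by a median of 5.74 percentage points. In exons alone the values were 42.2% and 38.4%, and outside exons 31.4% and 29.7%, so that the difference was smaller within each class than over all bases. In the central part of the members the bases left had 37.2% G and C and the bases lost 31.3%, and in the outer parts 38.2% and 32.2%. The other peaks of 2000 bp or longer had 37.5% in the central part and 35.8% in the outer parts. The part of base composition in the calling of the pieces was not tested.

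Short sequence elements known to bind plant factors, some of them linked to Polycomb, were counted by exact match on both strands. The GA repeat is bound by BASIC PENTACYSTEINE proteins and the telo box by TELOMERE REPEAT BINDING proteins, both of which interact with PRC2 components in *Arabidopsis*, and the RY element is bound by the B3 domain repressors VAL1 and VAL2. The GA repeat (GAGAGA) had 2.11 matches per kb in the bases left and 0.958 in the bases lost, the telo box (AAACCCTA) 0.332 and 0.116, and the RY element (CATGCA) 0.891 and 0.665. The G box (CACGTG), bound by bHLH and bZIP factors, had 0.228 and 0.0945, and the GCC box (GCCGCC), bound by ERF factors, 0.232 and 0.0457. The CArG box, the site of MADS domain proteins, had 0.0622 and 0.0701. In windows of 300 bp, 36.9% of 233 windows on the bases left held a GA repeat (interval 31.0 to 43.3%), against 25.1% of 247 windows on the bases lost (20.1 to 30.9%) and 28.3% of the centres of the 3282 other peaks (26.8 to 29.9%). The telo box was found in 8.58% (5.63 to 12.9%), 2.02% (0.868 to 4.65%) and 5.36%, and the RY element in 15.9%, 14.98% and 18.3%. The G box was found in 7.30%, 2.02% and 6.89%, and the GCC box in 9.01%, 1.22% and 8.11%, so for these the windows left were close to the centres of other peaks. The bases left were also richer in G, C and exons, and the part of composition in these densities was not tested. A match is a run of letters and does not show that a factor was bound.

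The genes at the members were mostly silent or weakly expressed in Col-0. A gene counted as a target if a member overlapped its body or the 1000 bp upstream of its start, which gave 391 targets at 241 members, 357 of them protein coding, and left 15 members with none. Their median level in Col-0 was 0.0739 RPKM (counts scaled to gene length and library size), against 0.307 for 4670 targets of the other peaks and 11.9 for 17480 genes with no Col-0 peak that had enough counts to be tested. No count in Col-0 was found for 134 of the 391. Enough counts for a test across the 14 libraries were present for 219 (56.01%), and the counts below refer to these, not to all targets. The RNA came from bulk seedling tissue, so fewer cells of a type and less RNA per cell cannot be told apart.

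In *clf-29* 15 of 219 targets were higher than in Col-0 at a log2 fold change above 1 and an unadjusted p under 0.05 (edgeR quasi-likelihood test), which is 6.85% (interval 4.19 to 10.99%) against 1.99% of all 22060 genes tested and 3.57% of the targets of other peaks. None was lower by edgeR or DESeq2, against 0.562% of all genes. In the *LHP1* mutant lines 16 were higher (7.31%, 4.55 to 11.5%), against 2.01% of all genes and 4.33% of the targets of other peaks, and 7 were lower (3.20%, 1.56 to 6.45%), against 1.93%. No target passed a Benjamini-Hochberg adjusted p of 0.05 in edgeR in either comparison, where 5 and 18 of all genes were higher (0.0227% and 0.0816%) and 1 and 4 lower (0.00453% and 0.0181%). The median log2 fold change of the tested targets was 0.14 in *clf-29* and 0.04 in the *LHP1* lines, against -0.02 over all genes in each. Both comparisons share the Col-0 libraries. Single libraries weighed on these counts: higher targets in *clf-29* numbered 25 without the second Col-0 library, 23 without the first *clf-29* library and 7 without the second, and in the *LHP1* lines 10 without *lhp1-6*. Lower targets numbered 7 in *clf-29* without the first Col-0 library and 3 without the second, and 1 without either *clf-29* library. In the *LHP1* lines they numbered 12 without the first Col-0 library, 3 without *tfl2-2* and 2 without *lhp1-6*.

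MADS box genes, the family of floral organ and flowering time regulators, had the most calls among the listed families. The 6 targets of this family were all tested, and 2 were higher in *clf-29* and 5 in the *LHP1* mutant lines, with median log2 fold changes of 0.78 and 2.11. Of 29 tested MADS box targets of other Col-0 peaks, 12 and 14 were higher. *SHP2*, a gene of the fruit valve margin and ovule, was at 0.117 and 0 CPM in Col-0, 6.77 and 3.38 in *clf-29*, 3.20 in *tfl2-2* and 4.31 in *lhp1-6*. All mutant libraries lay above both Col-0 libraries, and the log2 fold change was 6.11 (SE 1.0, adjusted p = 0.21, edgeR) in *clf-29* and 5.68 (SE 0.99, adjusted p = 0.10) in the *LHP1* lines, from 4 and 0 Col-0 counts. *AGL6*, which acts in floral meristems, was at 0.0586 and 0.0983 CPM in Col-0, 0.719 and 1.42 in *clf-29* and 0.595 and 0.713 in the *LHP1* lines, and rose by a log2 fold change of 3.74 (SE 0.82, adjusted p = 0.55, edgeR) and 3.05 (SE 0.82, adjusted p = 0.39). These groups did not overlap, at levels of at most 1.42 CPM.

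Other MADS box targets differed from Col-0 only in the *LHP1* lines by this criterion; the difference between the mutants was not tested. *AGL8*, also known as *FRUITFULL*, a promoter of flowering and fruit growth, was at 1.85 and 1.67 CPM in Col-0, 1.08 and 4.65 in *clf-29* and 14.2 and 9.87 in the *LHP1* lines (log2 fold change 2.77, SE 0.60, adjusted p = 0.21, edgeR). The *clf-29* libraries lay on both sides of Col-0, and both *LHP1* libraries above it. *SEP4*, an E class floral gene, was at 24.2 and 13.8 CPM in Col-0, 41.7 and 27.6 in *clf-29* and 44.9 and 43.0 in the *LHP1* lines, where the log2 fold change was 1.21 (SE 0.35, adjusted p = 0.48, edgeR) and in *clf-29* 0.87. Without the second Col-0 library *SEP4* was no longer called in the *LHP1* lines. *SHP1*, the close relative of *SHP2*, was at 1.17 and 1.28 CPM in Col-0, 0.689 and 2.45 in *clf-29* and 3.54 and 3.18 in the *LHP1* lines (log2 fold change 1.46, SE 0.61, adjusted p = 0.85, edgeR). *MAF4*, a repressor of flowering related to *FLC*, was at 3.84 and 6.29 CPM in Col-0, 7.94 and 7.69 in *clf-29* and 6.52 and 6.69 in the *LHP1* lines, and did not pass the fold limit in either.

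Their peaks were trimmed in different places. At *SHP2* the Col-0 peak at chr2:17820104-17823755 kept chr2:17820176-17821780 (1605 bp) in *clf-29* and chr2:17820353-17822380 (2028 bp) in *lhp1-6*, on the first part of the gene, and the second Col-0 list had no peak there. At *AGL6* the peak at chr2:18803345-18806396 kept 1243 bp and 1731 bp and was covered fully in the second Col-0 list. At *SHP1* 1610 bp and 2074 bp of 3473 bp remained, and at *MAF4* 1209 bp and 538 bp of 3065 bp. At *AGL8* only 35 bp of 1467 bp were covered in *clf-29* and 805 bp in *lhp1-6*, and the pieces did not overlap. The base of the transcription start was kept in both mutants at *AGL6*, lost in both at *SHP2* and *SEP4*, and outside the Col-0 peak at *SHP1* and *AGL8*. At *SHP2* the start, chr2:17820114, lay close to the *clf-29* piece, which begins at chr2:17820176. At *SEP4* the start, chr2:1129229, lay close to both pieces and inside the *tfl2-2* and second *clf-29* pieces.

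Enzyme, transporter and other regulator genes made up the rest of the named targets that were higher. *CKX3*, a cytokinin oxidase that degrades cytokinin, was at 0.439 and 0.0491 CPM in Col-0, 1.92 and 3.53 in *clf-29* and 7.12 and 9.72 in the *LHP1* lines, with log2 fold changes of 3.34 (SE 0.80, adjusted p = 0.57, edgeR) and 4.97 (SE 0.83, adjusted p = 0.090). All mutant libraries lay above Col-0, and its start was kept in both mutants. *WRKY8*, a stress-related WRKY factor, was at 2.11 and 2.26 CPM in Col-0, 4.70 and 7.79 in *clf-29* and 5.13 and 6.75 in the *LHP1* lines, with log2 fold changes of 1.51 (SE 0.36) and 1.44 (SE 0.36). *GPAT1*, a glycerol-3-phosphate acyltransferase of lipid synthesis, was at 2.49 and 3.19 CPM in Col-0, 5.06 and 9.06 in *clf-29* and 10.01 and 13.4 in the *LHP1* lines, with log2 fold changes of 1.31 (SE 0.40) and 2.05 (SE 0.41). None of the Col-0 libraries overlapped the mutant libraries for these genes. AT3G49270, annotated as extensin-like, had no count in either Col-0 library, 0.419 and 0.294 CPM in *clf-29* and 2.86 and 4.22 in the *LHP1* lines. The sugar transporter gene *SWEET13* (1.51 and 1.31), AT4G15975 (1.51 and 1.31) and AT2G32160 (2.06 and 1.69) had log2 fold changes above 1 in *clf-29* and the *LHP1* lines, in this order. *LBD25*, a LOB domain gene, was at 1.99 and 2.41 CPM in Col-0 and 6.86 and 5.59 in the *LHP1* lines (SE of the log2 fold change 0.37), and AT4G11350 (1.33), AT1G12160 (2.04) and AT2G39420 (1.46) were higher in *clf-29*.

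**Figure D5:**
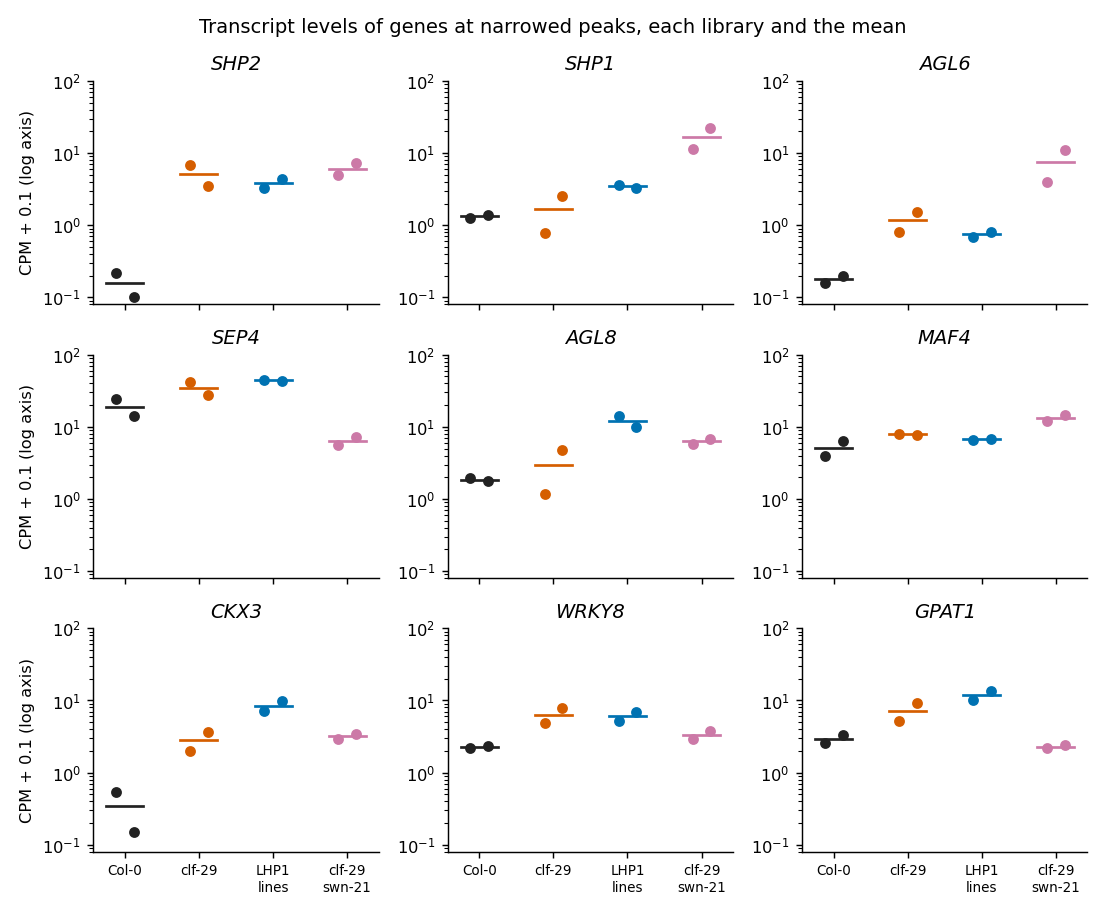
CPM plus 0.1 on a log axis for 9 target genes, each point a library and each line the mean of 2 libraries, in Col-0, *clf-29*, the *LHP1* mutant lines and *clf-29swn-21*. *SHP2*, *AGL6* and *CKX3* are at 0.439 CPM or below in Col-0 and above it in all other libraries shown.

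The genes at the 14 regions narrowed in all 4 mutant lists and covered by 60% or more in the second Col-0 list ranged from silent to well expressed. *NAC019* was at 12.5 and 35.5 CPM in Col-0 and 27.5 and 107 in *clf-29*, so that it was higher within each growth temperature, and at 16.6 and 15.1 in the *LHP1* lines. Its log2 fold change in *clf-29* was 1.48 (SE 0.63, adjusted p = 1, edgeR). *WRKY55* was between 0.416 and 2.60 CPM in the Col-0, *clf-29* and *LHP1* libraries, *HIPP25* between 0.934 and 8.81 and AT2G18196 between 3.16 and 7.37, with no call in *clf-29* or the *LHP1* lines. *MIOX5* and AT3G52690 had no count in these 6 libraries. Of the 14 regions 3, at *HIPP25*, AT2G18196 and AT1G29100, carry genes annotated as heavy metal transport/detoxification proteins, a group noted after the values were seen, with 4 members among the 391 targets and 14 among 6638 targets of all other Col-0 peaks.

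The 7 targets that were lower in the *LHP1* lines rested mostly on single Col-0 libraries. *MSRB6*, a methionine sulfoxide reductase, was at 93.5 and 44.3 CPM in Col-0 and 24.1 and 25.02 in the *LHP1* lines, and fell by 1.49 on the log2 scale (SE 0.40, adjusted p = 0.40, edgeR), with no overlap. *BBX8*, a B-box zinc finger gene, was at 10.5 CPM in the first Col-0 library, 53.9 in the second, and 7.94 and 6.75 in the *LHP1* lines. *BAP2* was at 0.673 and 4.37 against 0.340 and 0.357, *TGA9*, a bZIP factor of anther development, at 0.234 and 0.884 against 0.142 and 0.208, and *GA2OX4*, a gibberellin oxidase, at 0.908 and 1.52 against 0.425 and 0.119. Without the second Col-0 library, which has the 22 °C label that neither *LHP1* line has, *BBX8*, *BAP2*, *TGA9*, *GA2OX4* and AT1G09480 were no longer called, and without the first *MSRB6* was not. AT2G39410, the other target that was lower, was at 0.673 and 1.97 CPM in Col-0 and 0.567 and 0.208 in the *LHP1* lines.

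Other families among the targets showed few calls, with at most 9 tested targets in each. Of all genes tested, 1.99% were higher in *clf-29* and 2.01% in the *LHP1* lines, so an absence of calls in so few genes is no result about the members. Of the tested targets of other Col-0 peaks, 3 and 4 of 50 MYB, 2 and 3 of 43 bHLH, 4 and 2 of 28 WRKY, 7 and 5 of 99 transporter and 11 and 12 of 88 F-box genes were higher. Of 7 MYB targets, among them *MYB0* (*GLABRA1*, a regulator of trichomes), and 6 bHLH targets, among them *FMA* (*FAMA*, a regulator of guard cells), of which 6 and 5 were tested, none was called in *clf-29* or the *LHP1* lines. Of 5 WRKY targets, 1 was higher in each, *WRKY8*. Of 3 NAC targets 1 was higher in *clf-29*, and of 12 zinc finger targets 1 was lower in the *LHP1* lines. Of 2 bZIP targets 1 was lower in the *LHP1* lines, *TGA9*. The 22 F-box targets, of which 4 were tested, the 8 annotated as transporters, the 5 receptor kinase and the 4 AP2/ERF, 4 cytochrome P450 and 4 auxin-related targets gave no call, nor did the homeobox, GATA, B3 and CLE peptide targets. No TCP, SPL or peroxidase gene was a target. The microRNA genes *MIR156a* and *MIR156g*, whose product represses SPL factors and with them the change to the adult phase, are targets whose start kept cover in both mutants. *MIR156g* had no count in any library and *MIR156a* had at most 1.29 CPM outside *clf-29swn-21*. Of the Polycomb genes listed, only the PRC2 subunit gene *FIE* was a target through its upstream region, at 26.0 and 16.9 CPM in Col-0 and 24.5 and 17.5 in *clf-29*.

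In *clf-29swn-21*, which carries mutations in both *CLF* and *SWN* by its label, calls were frequent in both directions. There 84 of 219 targets were higher (38.4%, interval 32.2 to 44.9%), against 16.3% of all genes and 33.2% of the targets of other peaks (31.5 to 34.8%), and 29 were lower (13.2%), against 15.6% and 14.4%, and the median log2 fold change was 0.57 against 0.01. Examples chosen after their values were seen show both. *SHP2* rose by a log2 fold change of 6.35 (adjusted p = 0.0015, edgeR), and *AGL6* by 6.53 (adjusted p = 0.00059), whereas *SEP4* fell by 1.59 (adjusted p = 0.0087), *MYB0* fell by 4.66 (adjusted p = 0.0062) and *FMA* fell by 2.87 (adjusted p = 0.0011). *HEC2*, a gynoecium bHLH gene, was at 0 and 0.0491 CPM in Col-0, from 1 count in all, and at 3.91 and 3.05 in *clf-29swn-21* (adjusted p = 0.0016, edgeR). The summed level of 7 shoot markers was 2415 and 3652 CPM in this mutant and 9140 to 12956 in all other libraries. The summed level of 12 root markers was 93.0 and 11.5 CPM, against 1.08 to 11.2. These markers include *RHD6*, itself a target, without which the sums were 85.9 and 8.73 CPM, against 1.08 to 11.2. Their part in the calls was not tested, nor was that of the medium. In *atbmi1a,b* 20 targets were higher (9.13%) and 3 lower, against 3.96% and 1.53% of all genes, and 11.8% of the targets of other peaks were higher. In *atring1a,b* 22 were higher (10.05%) and 2 lower, against 5.01% and 2.6%, and 14.6% of the targets of other peaks were higher. The member shares thus lay above those of all genes and below those of the other targets. In the libraries labelled *swn-21* 4 were higher and 4 lower, against 1.84% and 1.06%.

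Whether the start of a gene kept the mark was set beside its call. Of 112 targets with the start left in both mutants, 59 were tested, and 6 were higher in *clf-29* and 7 in the *LHP1* lines. Of 75 with the start lost in both, 30 were tested, and 2 and 4 were higher. The shares in *clf-29* were 10.2% (interval 4.75 to 20.5%) and 6.67% (1.85 to 21.3%), and in the *LHP1* lines 11.9% and 13.3%, with intervals that overlap in each. A difference between the positions was not detectable with these numbers.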

How the data were processed

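H3K27me3 ChIP-seq lists and RNA-seq counts of seedlings were analysed. Per the methods, the authors mapped 50 bp ChIP reads to TAIR10 with BWA, kept reads of sufficient mapping quality and ran MACS on every library. The deposited lists hold start, end and a MACS score, used here only for ranks within a list. Raw gene counts of each library were deposited unnormalized, and the submitters' processing notes name HTSeq and DESeq. The authors' table of fold changes and p-values between single libraries was not used. The no-antibody libraries were not analysed here.

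The members and the gene lists were chosen with earlier results of these data known. Peaks were compared in Python 3.11.15 with numpy 2.4.6, pandas 2.3.3 and scipy 1.17.1, and a shared base counted as overlap. An end counted as trimmed at 100 bp. A peak was oriented by the gene that overlaps it most. Gene models came from RefSeq TAIR10.1: 658 of 658 genes of a partial TAIR10 table overlapped their RefSeq position, and 97.7% of 33602 identifiers matched. Counts were tested in R 4.3.3 with edgeR 4.0.16 (filterByExpr, TMM, robust quasi-likelihood, 7 groups in 1 fit of 14 libraries). Counts on no gene, 2.66 to 3.43% of a library, were left out. Procedures were tested on simulated data. Named genes were up to 12 higher and 6 lower targets per comparison by p, with the same sign in both pairs of libraries. Also named were the targets of the 14 regions shown, the mutated genes and listed families. Motifs were matched on both strands. Alternatives were other limits and lists, DESeq2 1.42.0, RLE factors, no count filter, fewer libraries and the replicate number as a block. RPKM and CPM were computed from the counts.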

Additional observations from a re-analysis of the deposited data

How the results depend on the processing

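The number of narrowed peaks followed the limits: 116 at a cover limit of 50%, 493 at 70%, 169 with a length limit of 3000 bp, 424 without one, 87 with the second *clf-29* list in the rule and 120 when only peaks covered by 60% or more in the second Col-0 list were kept, the last chosen after seeing the data. It was 188 with Col-0 scores of 100 or more, 171 with *tfl2-2* in place of *lhp1-6* and 243 with gaps of 500 bp or less filled. The share narrowed in *tfl2-2* was 53.5% at 50%, 32.1% at 70% and 56.6% without a length limit, and that in the second *clf-29* list 28.5%, 12.6% and 32.1%, and 16.0% at 3000 bp. Overlapping pieces were found in 96.8% at 70% and 79.3% with the second *clf-29* list. The remainder of *clf-29* was centred in the central part of the peak in 22.4% at 50%, 48.1% at 70%, 10.3% with the second *clf-29* list and 26.9% with *tfl2-2* in place of *lhp1-6*, and that of *lhp1-6* in 29.3%, 57.2% and, with *tfl2-2*, 33.9%. Starts were kept in 49.5% in *clf-29* and 46.6% in *lhp1-6* at 50%, and in 65.1% with *tfl2-2*. A lower limit leaves a smaller remainder by construction.

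With adjusted p-values 0 targets were higher in *clf-29* or in the *LHP1* lines and 0 were lower in the latter. Leaving out 1 library gave 7 to 25 higher and 1 to 7 lower targets in *clf-29*, and 10 to 23 higher and 2 to 12 lower in the *LHP1* lines. Without the first Col-0 library 7 were lower in *clf-29* and 12 in the *LHP1* lines. Lower calls in *clf-29* were 3 without the filter on low counts and 1 in a fit of the 4 libraries compared, which gave 4 in the *LHP1* lines. The cause was not tested. A group left with 1 library was assumed to vary like the others. DESeq2 gave 16 higher and 0 lower in *clf-29*, and 15 and 10 in the *LHP1* lines. The replicate numbers are not stated to pair the samples. Differences between replicates correlated by 0.75 between Col-0 and *clf-29*, 0.76 between Col-0 and *atbmi1a,b*, 0.55 between *clf-29* and *atbmi1a,b* and 0.27 to 0.35 between these and *atring1a,b*, and by -0.14 to 0.07 for pairs that include *swn-21*, *clf-29swn-21* or the *LHP1* lines. With the replicate number as a block 18 targets were higher and 1 lower in *clf-29*, and 15 and 8 in the *LHP1* lines. Of 267 values for 30 named results under the alternatives, 225 kept their call and direction, 42 lost the call and 0 reversed.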
